A study of Mus musculus with 6 samples.

Results

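The constitutive proteasome subunits were followed in livers of 6 male C57BL/6N (Envigo) mice aged 16 weeks, 3 on each diet. The HFHC group (replicates 1, 2 and 3) had a high-fat, high-calorie food with fructose and a high-fructose drink for 8 weeks from the age of 8 weeks, and the Chow group (replicates 7, 8 and 9) had chow. All the mice were wild type, each library is the liver RNA of 1 mouse, and the labels name no drug, transgene or deletion. Members were the protein-coding rows of the gene table whose symbol is Psma, Psmb, Psmc or Psmd followed by a digit, without the immunoproteasome genes Psmb8, Psmb9 and Psmb10, which gave 36 of 20107 genes. The members divide by role into 7 genes of the alpha ring, 7 of the beta ring, 6 ATPases of the base, 3 other base genes, 8 lid genes and 3 assembly factors. The rule also takes Psma8, an alpha subunit known from testis, and Psmc3ip, whose product works in meiotic recombination and is not a proteasome subunit. Of the 36 members 35 passed the filter on low counts, and Psmc3ip did not.

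The proteasome is the protease of the cytosol and nucleus that degrades proteins marked with ubiquitin. Its 20S core is a barrel of outer alpha rings, which gate the entrance, and inner beta rings, in which Psmb6 (caspase-like), Psmb7 (trypsin-like) and Psmb5 (chymotrypsin-like) carry the cutting sites. The 19S regulatory particle caps the barrel: the Psmc ATPases of its base unfold the substrate, and its lid holds Psmd14, the enzyme that cuts ubiquitin off. When proteasome activity falls short, the transcription factor encoded by Nfe2l1 raises most subunit genes together through antioxidant response elements in their promoters, and interferon exchanges the catalytic subunits for Psmb8, Psmb9 and Psmb10. In liver the proteasome is known to degrade, among other proteins, apolipoprotein B and enzymes of sterol synthesis.

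The promoters of Psmd9, Psmb5 and Psmb6 are shown because they bear the core of an antioxidant response element, TGACNNNGC, in the member that passed the test below and in the catalytic subunits that have an entry with a match. They are RefSeq windows (GRCm38.p6) of 300 bases, from 250 before to 50 after the gene's start, with the match in capitals. That of Psmd9 is chr5:123227940-123228239 on the plus strand, that of Psmb5 is chr14:54617946-54618245 on the minus strand, and that of Psmb6 is chr11:70525107-70525406 on the plus strand.
Psmd9: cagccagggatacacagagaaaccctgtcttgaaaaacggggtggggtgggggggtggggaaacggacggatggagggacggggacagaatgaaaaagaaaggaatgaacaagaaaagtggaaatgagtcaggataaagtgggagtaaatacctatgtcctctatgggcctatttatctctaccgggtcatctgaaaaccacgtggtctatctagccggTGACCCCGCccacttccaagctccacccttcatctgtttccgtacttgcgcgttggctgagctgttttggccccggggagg
Psmb5: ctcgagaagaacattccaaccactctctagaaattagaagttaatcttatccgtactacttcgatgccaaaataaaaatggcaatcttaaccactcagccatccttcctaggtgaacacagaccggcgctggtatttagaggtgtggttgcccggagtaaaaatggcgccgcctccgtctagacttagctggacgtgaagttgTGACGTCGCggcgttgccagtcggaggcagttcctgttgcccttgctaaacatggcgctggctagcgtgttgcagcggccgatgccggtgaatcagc
Psmb6: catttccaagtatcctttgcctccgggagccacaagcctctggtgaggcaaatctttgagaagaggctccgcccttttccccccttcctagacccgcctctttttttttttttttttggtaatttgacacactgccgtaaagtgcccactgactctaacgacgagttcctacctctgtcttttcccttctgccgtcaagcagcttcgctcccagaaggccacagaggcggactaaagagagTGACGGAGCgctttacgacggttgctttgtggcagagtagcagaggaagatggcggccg
The match began 31 bases before the start in Psmd9, 47 before it in Psmb5 and 9 before it in Psmb6. Searched on both strands, TGACNNNGC was in 5 of the 31 windows of the 29 members with an entry (16.1%), against 12.4% of all 32851 windows. The other matches were TGACACAGC in Psmd12 and TGACTTAGC in Psmc6, both on the opposite strand, at 247 and 227 bases before the start. CCAAT, the box bound by NF-Y, was in 12 of the 31 windows (38.7%), against 37.4% of all windows, and the 2 motifs shared no window of a member. The windows of the members thus held either motif at about the share of all promoters. Psma8, Psmb1, Psmb2, Psmb7, Psmc3, Psmd3 and Psmd7 had no entry.

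The constitutive proteasome genes were nearly level between the diets. Of the 35 tested members 1 was called higher in HFHC livers and 0 lower, by edgeR's quasi-likelihood test at an adjusted p under 0.05. That is 2.86% of the members, where 6.67% of all 14896 tested genes were called in either direction, 3.38% higher and 3.3% lower. At an unadjusted p under 0.05 the members were Psmd1, Psmd4 and Psmd9, 3 of 35 against 22.2% of all tested genes, and DESeq2 called the same gene, Psmd9, alone. The median log2 fold change of the members, HFHC over Chow, was 0.082, or 1.06-fold, beside -0.0033 over all tested genes. The values ran from -0.15 for Psma4 to 0.30 for Psmd9. In whole liver RNA, fewer cells of a type and less RNA per cell cannot be told apart.

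The intervals of the members were narrow. For 34 of the 35 members (97.1%) the 95% interval of the fold change lay within 1.5-fold either way, against 62% of all tested genes. The 62% covers genes of every level, and no share was taken over genes of the members' range of levels. The exception was Psma8, which had few counts. Among the members that were not called, other than Psma8, the highest upper bound was that of Psma5, at 0.39 on the log2 scale or 1.31-fold. The lowest lower bound was that of Psma4, at -0.40 or 0.756-fold. These intervals are not adjusted for the number of genes. The 34 members other than Psma8 were also steady within a diet: the median SD of log2 CPM (counts scaled to a common library size) among the 3 livers of a diet was 0.088 for them, beside 0.11 for the 6676 tested genes of the same range of levels (11.8 to 171 CPM).

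**Figure D1:**
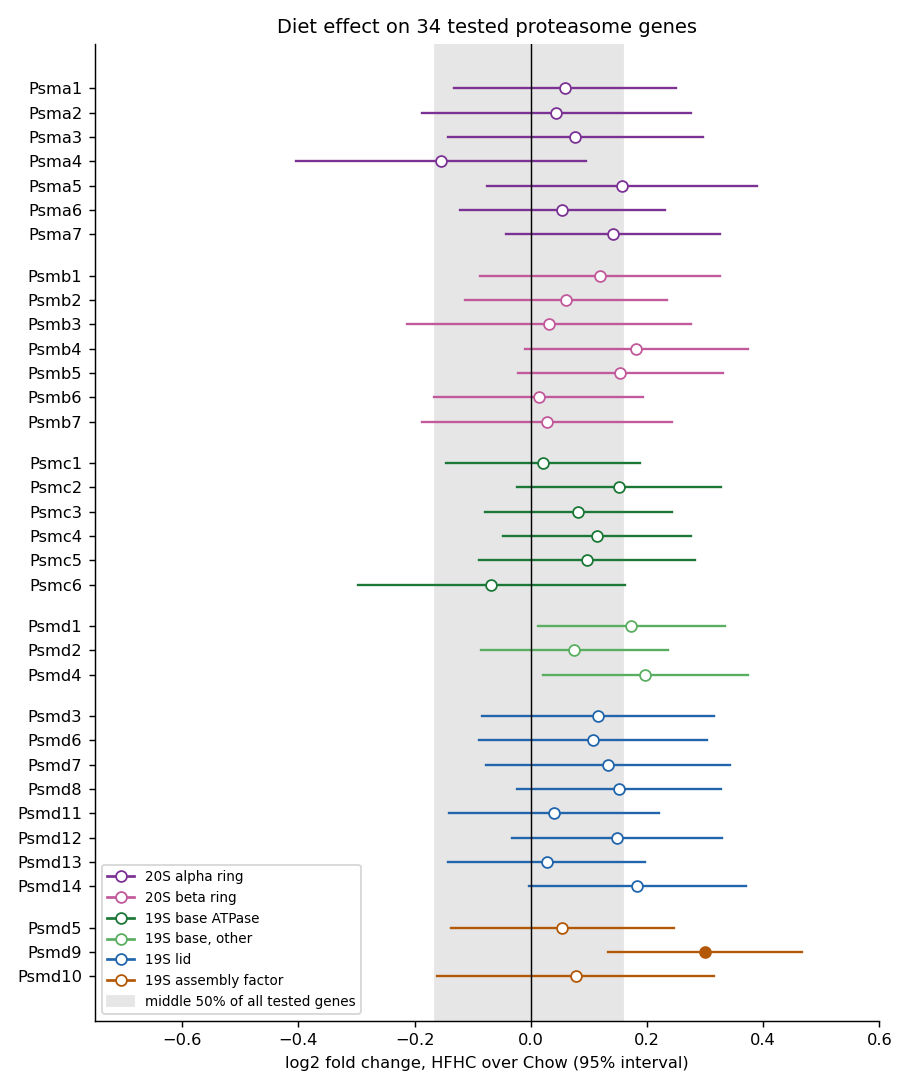
Log2 fold change (HFHC over Chow, x axis) of 34 tested members, grouped by role, with Psma8 left out for its wide interval; points are estimates of edgeR, lines are 95% intervals, the filled point passed an adjusted p of 0.05, and the grey band holds the middle 50% of all tested genes. Psmd9 at 0.30 is the filled point, and Psma4 and Psmc6 are the members left of 0.

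The small differences leaned one way. The log2 fold change was above 0 in 33 of 35 members (94.3%), where 49.5% of all tested genes were above 0. In 10 members (28.6%) every HFHC liver was above every Chow liver, against 13.5% of all tested genes, and in 0 members was every HFHC liver below every Chow liver, against 14.3%. The 10 were Psmb4, Psmb5, Psmc3, Psmc4, Psmd1, Psmd2, Psmd4, Psmd8, Psmd9 and Psmd12. The members shared the ups and downs of single livers, so these counts are not of independent genes. Without HFHC replicate 3, 25 of 35 members were above 0, without Chow replicate 8, 28 were, and with weighted limma-voom 27 were. After a correction of every library for GC content and transcript length 28 were. The median of the members was then 0.074, beside 0.015 over all tested genes. The fitted trend was set to 0 at the median gene of every library. At the median of the 34 members other than Psma8 it was 0.044 higher in HFHC than in Chow livers (log2).

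**Figure D2:**
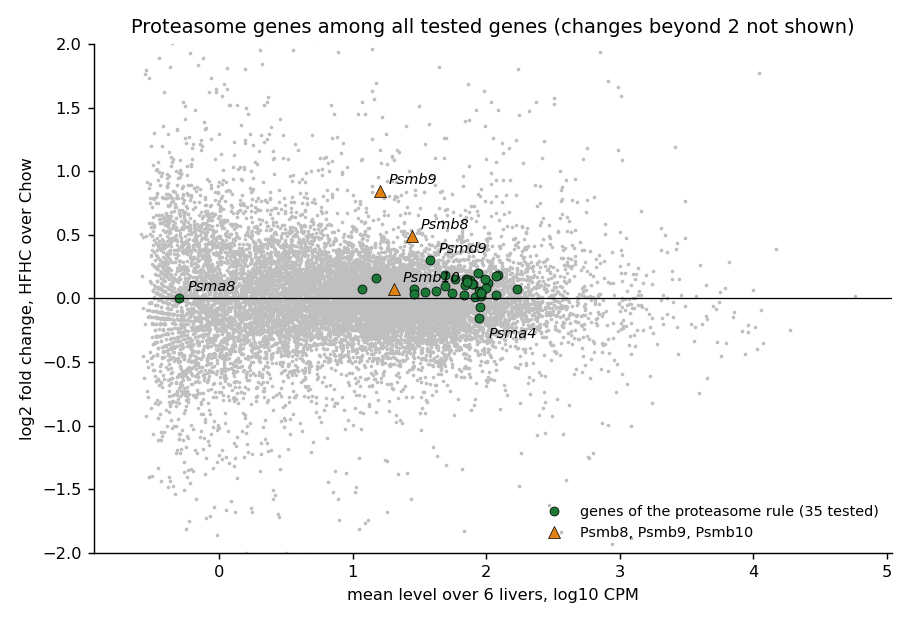
Log2 fold change (y axis, cut at 2 either way) against mean level over the 6 livers (x axis, log10 CPM) for all 14896 tested genes (grey), the 35 tested members (green circles) and the immunoproteasome genes (orange triangles). The members lie between -0.15 and 0.30, while Psmb9 stands at 0.84 and Psmb8 at 0.49.

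Psmd9 encodes a chaperone (p27) that holds ATPases of the base during assembly and is not part of the finished particle. Its level was 43.2, 40.4 and 41.8 CPM in HFHC livers 1, 2 and 3, against 32.7, 33.8 and 35.4 CPM in Chow livers 7, 8 and 9. Every HFHC liver was above every Chow liver, and the gap between the diets was wider than the spread within either. Psmd9 rose by 0.30 ± 0.074 on the log2 scale (SE, n = 3 per diet, edgeR quasi-likelihood adjusted p = 0.0444). The call was close to the threshold: it was lost whichever of the 6 libraries was dropped (adjusted p 0.0733 to 0.178), with no count filter (0.0507) and after correction for GC content and length (0.0629), while the log2 fold change stayed between 0.25 and 0.33 in these fits.

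Psmd9 spans bases 123169413 to 123250131 of chromosome 5 on the plus strand (mm10). This GENCODE M21 extent includes a noncoding transcript that begins far before the protein-coding one, at whose start the promoter window above is placed, and Hpd, an abundant liver enzyme gene of the other strand, lies inside it. Of the exonic bases of Psmd9 25.5% are overlapped by Gm26745, a noncoding gene on the opposite strand. The strand setting of the counting is not given in the sources used here, so reads of the pair cannot be told apart. The same limit holds for smaller opposite-strand overlaps, among them Psmb7 (11.8%, Nek6), Psmd13 (10.1%, Sirt3) and Psmc3 (8.25%, Slc39a13). On the same strand Mir686 overlaps 12.1% of Psmb5. Hpd shares no exonic bases with Psmd9. Its level was 1212, 1096 and 1092 CPM in the HFHC livers, against 1344, 1132 and 1403 CPM in the Chow livers, with the diets overlapping. Values of Gm26745 are not given here, and its part in the counts of Psmd9 was not tested.

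The other assembly factors of the rule did not pass. Psmd5, which holds another set of ATPases, had 34.3, 36.8 and 35.2 CPM in HFHC livers, against 32.4, 32.5 and 37.5 CPM in Chow livers (0.054 ± 0.085). Psmd10 (gankyrin), which binds the ATPase Psmc4 and is known as an oncoprotein of liver cancer, averaged 12.2 ± 0.37 CPM in HFHC and 11.5 ± 1.26 CPM in Chow livers (SD, n = 3 each). The diets overlapped in both genes.

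Among the catalytic subunits none was called. Psmb5, the chymotrypsin-like subunit and the target of bortezomib, had 61.1, 59.0 and 65.2 CPM in HFHC livers, against 57.8, 52.5 and 56.1 CPM in Chow livers. The diets did not overlap for Psmb5, though the closest livers differed by little (0.15 ± 0.078, adjusted p = 0.285, edgeR). Psmb6, the caspase-like subunit, had 83.4, 77.6 and 86.3 CPM in HFHC livers, against 82.5, 76.8 and 85.8 CPM in Chow livers. The trypsin-like subunit Psmb7 had 118, 110 and 128 CPM in HFHC livers, against 125, 104 and 120 CPM in Chow livers. For Psmb6 and Psmb7 the livers of the diets were interleaved, with log2 fold changes of 0.013 (95% interval -0.17 to 0.19) and 0.027 (-0.19 to 0.24).

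The structural beta subunits were close as well. Psmb4 had the largest value of the ring, with 132, 116 and 140 CPM in HFHC livers, against 116, 112 and 114 CPM in Chow livers (0.18 ± 0.085, adjusted p = 0.250, edgeR). HFHC replicate 2 was barely above the highest Chow liver. Psmb3 had 30.7, 24.98 and 31.5 CPM in HFHC livers, against 28.95, 25.8 and 30.5 CPM in Chow livers, and the diets overlapped. Psmb1 and Psmb2 had log2 fold changes of 0.12 and 0.061.

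Of the 7 alpha ring genes 6 stood above 0, the median log2 fold change was 0.059, and none was called. The member with the smallest p was Psma7, at 78.4, 74.5 and 83.6 CPM in HFHC livers, against 72.0, 66.9 and 75.6 CPM in Chow livers (0.14 ± 0.082). Psma4 had the lowest value of all members, with 78.9, 74.4 and 98.2 CPM in HFHC livers, against 94.7, 86.8 and 98.3 CPM in Chow livers (-0.15 ± 0.11, adjusted p = 0.466, edgeR). HFHC replicates 1 and 2 were below every Chow liver for Psma4, and HFHC replicate 3 was level with the highest. Psma5 had 15.5, 14.1 and 17.3 CPM in HFHC livers, against 14.9, 13.6 and 13.6 CPM in Chow livers (0.16 ± 0.10). The other alpha genes, Psma1, Psma2, Psma3 and Psma6, lay between 0.044 and 0.077.

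The ATPases of the base form the ring that unfolds substrates, and 5 of 6 stood above 0 with none called. Psmc2 had 76.7, 70.3 and 76.5 CPM in HFHC livers, against 64.5, 70.9 and 65.8 CPM in Chow livers (0.15 ± 0.078, adjusted p = 0.292, edgeR). Chow replicate 8 was above HFHC replicate 2 for Psmc2, so the diets overlapped. Psmc6 had 82.2, 80.7 and 101.6 CPM in HFHC livers, against 96.6, 86.9 and 93.8 CPM in Chow livers (-0.068 ± 0.10), an order like that of Psma4, with HFHC replicate 3 high and HFHC replicates 1 and 2 low.

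The scaffold and ubiquitin-receptor genes of the base had the highest median of the role groups, at 0.17, and none was called. Psmd4, the ubiquitin receptor known as Rpn10, had 92.9, 86.2 and 98.0 CPM in HFHC livers, against 78.1, 82.7 and 80.8 CPM in Chow livers (0.20 ± 0.078, adjusted p = 0.173, edgeR). Psmd1, the scaffold Rpn2, had 128.5, 124.4 and 123.8 CPM in HFHC livers, against 108.4, 115.8 and 110.1 CPM in Chow livers (0.17 ± 0.072, adjusted p = 0.191). Psmd2, the scaffold Rpn1 and the member with the most counts, had 176, 178 and 171 CPM in HFHC livers, against 161, 169 and 169 CPM in Chow livers (0.075 ± 0.071). In these 3 genes every HFHC liver was above every Chow liver, as in 13.5% of all tested genes, and none of the 3 passed the test. They are among the 10 members counted above, which are not independent genes.

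All 8 lid genes stood above 0 in the log2 fold change (median 0.12), and none was called. Psmd14, the deubiquitinase of the lid, had 52.4, 49.5 and 55.8 CPM in HFHC livers, against 45.6, 43.7 and 49.7 CPM in Chow livers (0.18 ± 0.083, adjusted p = 0.234, edgeR). HFHC replicate 2 was just under Chow replicate 9 for Psmd14. Psmd13 had the smallest value, with 66.5, 67.3 and 73.5 CPM in HFHC livers, against 67.3, 66.5 and 69.5 CPM in Chow livers (0.028 ± 0.075). Psmd3, Psmd6, Psmd7, Psmd8, Psmd11 and Psmd12 lay between 0.041 and 0.15.

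**Figure D3:**
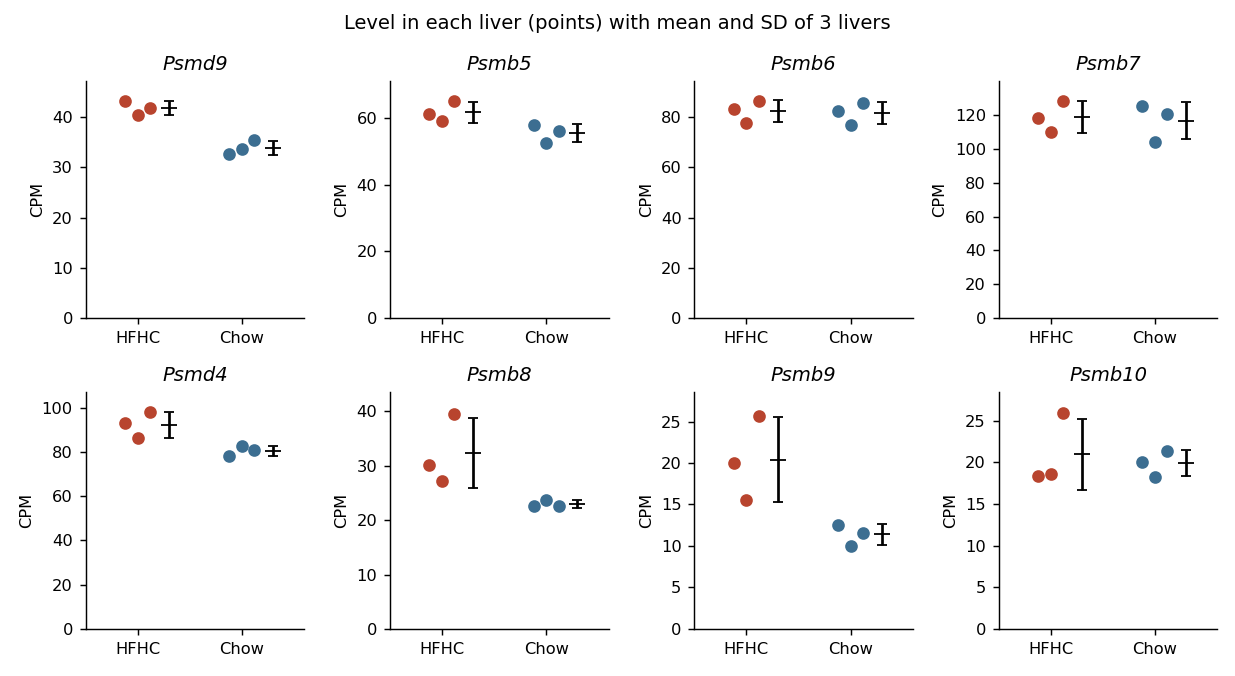
CPM (y axes, from 0) in each HFHC liver and each Chow liver for Psmd9, Psmd4, the catalytic subunits Psmb5, Psmb6 and Psmb7 and the immunoproteasome subunit that takes the place of each (Psmb8, Psmb9 and Psmb10); points are livers and bars are mean and SD of 3 livers. Psmd9 is the constitutive gene with the largest log2 fold change, 0.30, and Psmb9 averages 20.4 CPM in HFHC and 11.4 CPM in Chow livers.

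Psma8 and Psmc3ip had few counts. Psma8 had 18, 4 and 24 counts in HFHC livers, against 15, 8 and 17 counts in Chow livers, and its 95% interval reached from -1.24 to 1.249. Psmc3ip had 9, 5 and 8 counts in HFHC livers, against 1, 2 and 5 counts in Chow livers, which was below the filter and was not tested. A floor of 3 counts stood at 0.0954 to 0.114 CPM in these libraries and covers counting error only.

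The livers of 1 diet kept a common order over most genes of the 20S core. HFHC replicate 3 was the highest HFHC liver for 14 of 14 alpha and beta ring genes, and HFHC replicate 2 was the lowest for 13 of 14. Over all tested genes HFHC replicate 3 was the highest of its diet in 36.1% and HFHC replicate 2 the lowest in 32.2%. Among Chow livers replicate 8 was the lowest for 11 of 14 core genes, against 38.6% of all tested genes. Of the 17 genes of the regulatory particle, HFHC replicate 3 was the highest HFHC liver for 10 and the lowest for 4, where it was the lowest for 38.6% of all tested genes. HFHC replicate 2 was the lowest HFHC liver for 10 of the 17, against the same 32.2% of all tested genes. Among Chow livers replicate 7 was the lowest for 11 of the 17 (30.8% of all tested genes), replicate 8 for 6 and replicate 9 for 0 (30.7% of all tested genes). The orders in the core and in the regulatory particle were not tested against each other.

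Summed over the core genes the diets overlapped, and summed over the regulatory genes they did not. The 14 core genes added to 1011, 946 and 1108 CPM in HFHC livers 1, 2 and 3, against 997, 922 and 1010 CPM in Chow livers 7, 8 and 9. HFHC replicate 2 was thus below Chow replicates 7 and 9. The 17 base and lid genes added to 1512, 1455 and 1545 CPM in HFHC livers, against 1370, 1412 and 1429 CPM in Chow livers. All 31 genes together gave 2526 ± 126 CPM in HFHC and 2380 ± 53.8 CPM in Chow livers (SD, n = 3 each). The diets overlapped in this sum too, with HFHC replicate 2 at 2401 CPM and Chow replicate 9 at 2439 CPM. No test was made of these sums, nor of the difference between core and regulatory genes.

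**Figure D4:**
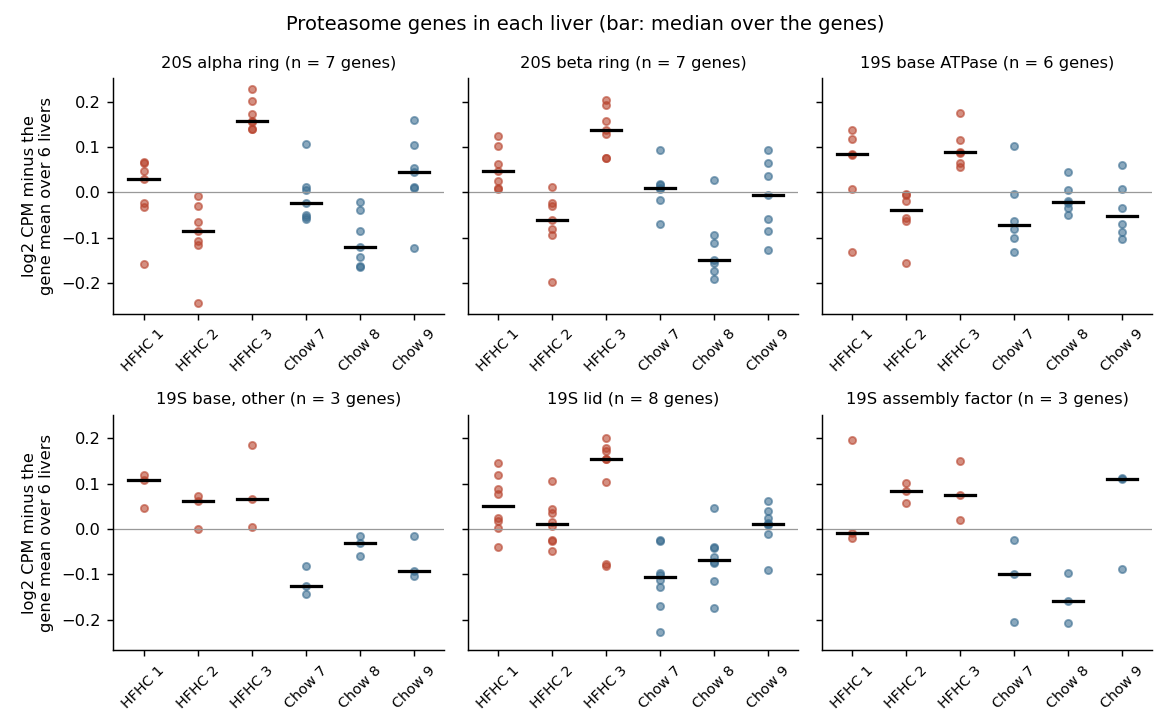
Log2 CPM minus the gene's mean over the 6 livers (y axes) in each liver (x axes, HFHC replicates 1 to 3 and Chow replicates 7 to 9), 1 panel per role; points are genes and black bars are medians over the genes. In the alpha ring the median is 0.16 in HFHC replicate 3, -0.085 in HFHC replicate 2 and -0.12 in Chow replicate 8.

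The role medians of the level per transcript length spanned a wider range than the gap between the diets in any role. Values within 1 role also differed widely. In HFHC livers the alpha ring ran from 10.5 CPM per kb for Psma3, 12.6 for Psma5 and 19.3 for Psma2 to 90.6 for Psma6. The values of Psma2, Psma3 and Psma5 are uncertain. Psma5 held 20.4% of the counts of itself and its pseudogene copies in HFHC livers. Psma2 and Psma3 were divided by principal transcripts of 2911 and 2846 bases, against 1042 bases for Psma6. Their counts were not whole in 6 and 5 libraries. Per kb of the principal transcript, the median was 71.9 CPM in HFHC and 72.1 CPM in Chow livers for the alpha ring, 68.7 CPM in HFHC and 61.7 CPM in Chow livers for the beta ring, and 49.5 CPM in HFHC and 47.1 CPM in Chow livers for the ATPases. The other base genes had medians of 59.2 CPM per kb in HFHC and 56.2 in Chow livers. The lid had medians of 38.6 CPM per kb in HFHC and 35.2 in Chow livers. The assembly factors had the lowest median, with 8.06, 8.50 and 16.1 CPM per kb for Psmd5, Psmd10 and Psmd9 in HFHC livers, against 7.76, 8.06 and 13.1 CPM per kb in Chow livers. Within the alpha ring, whose subunits are present in equal numbers in the particle, Psma6 had 90.6 CPM per kb in HFHC and 87.2 in Chow livers. Psma3 had 10.5 CPM per kb in HFHC and 9.93 in Chow livers, over a principal transcript of 2846 bases.

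Some members share reads with pseudogenes. For 7 members there were processed pseudogenes in the table whose transcript matches theirs at 90% identity or more. The match had to cover at least 50% of the member's principal transcript. That transcript is 2911 bases for Psma2 and 2846 for Psma3, so a shorter copy of these 2 genes could be missed. Psma5 held 20.4% of the counts summed over itself and its copies Gm8394 and Gm12989 in HFHC livers and 19.8% in Chow livers, so that most reads of this family were assigned to the copies. The share was 73.1% in HFHC and 72.7% in Chow livers for Psmb5 with Gm3375 and Psmb5-ps, 72.9% and 73.3% for Psmb3 in HFHC and Chow livers, 84.9% and 84.5% for Psma4, and 82.7% for Psmd2 in both diets. It was above 99% for Psmb6 and Psmd14. The levels of Psma5, Psmb5, Psmb3, Psma4 and Psmd2 are therefore uncertain, while the shares were close in both diets. With the copies added, the log2 fold change was 0.11 for Psma5 (95% interval -0.070 to 0.30), 0.15 for Psmb5, 0.040 for Psmb3, -0.16 for Psma4 and 0.076 for Psmd2, and none was called. Psma2, Psma3, Psmb1, Psmc1, Psmd1 and Psmd11 also had counts that were not whole in 5 or 6 libraries, so their levels are uncertain too. Psmb7 had such counts in 4 libraries. Its named pseudogene Psmb7-ps2 was in the table but did not meet the limits on identity and length. The level of Psmb7 is thus uncertain as well.

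**Figure D5:**
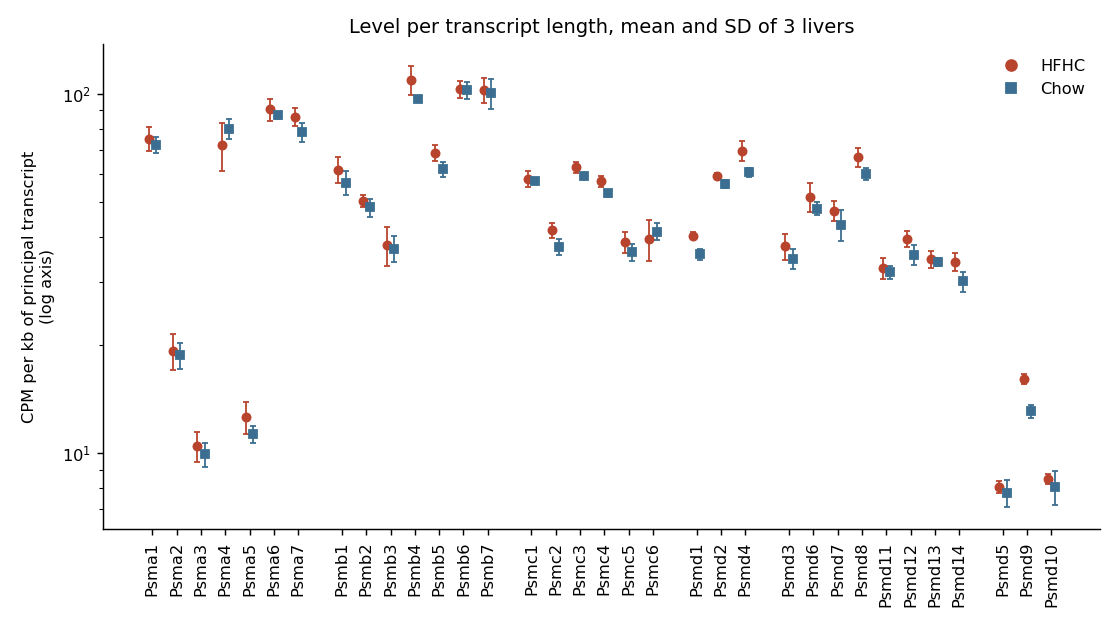
CPM per kb of the principal transcript (y axis, log scale) for each member other than Psma8 and Psmc3ip, ordered by role; circles are HFHC and squares are Chow livers, as mean and SD of 3. The 3 assembly factors at the right and Psma3 and Psma5 at the left are among the low genes, and Psmd9 averages 16.1 in HFHC and 13.1 in Chow livers.

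Of the immunoproteasome genes, which are not members, 1 of 3 was called higher. Psmb9 had 19.98, 15.6 and 25.7 CPM in HFHC livers, against 12.5, 10.01 and 11.6 CPM in Chow livers. It rose by 0.84 ± 0.17 on the log2 scale (edgeR adjusted p = 0.0220), a call lost without HFHC replicate 1 (0.0613), Chow replicate 7 (0.0546) or Chow replicate 9 (0.0655). Psmb8 had 30.2, 27.2 and 39.5 CPM in HFHC livers, against 22.7, 23.8 and 22.6 CPM in Chow livers (0.49 ± 0.13, edgeR adjusted p = 0.0552). Psmb10 had 18.3, 18.6 and 25.9 CPM in HFHC livers, against 19.997, 18.2 and 21.3 CPM in Chow livers, with the diets overlapping (0.076 ± 0.14). HFHC replicate 3 was the highest HFHC liver for all 3, as it was for the 14 core genes.

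The ratio of counts of each immunoproteasome subunit to its constitutive counterpart compares them within a liver, without correction for length. Psmb9 to Psmb6 was 0.240, 0.201 and 0.298 in HFHC livers, against 0.152, 0.130 and 0.135 in Chow livers, a difference of 0.80 in mean log2 ratio. Psmb8 to Psmb5 was 0.494, 0.462 and 0.607 in HFHC livers, against 0.392, 0.453 and 0.402 in Chow livers, a difference of 0.32. For both ratios every HFHC liver was above every Chow liver, and the exact permutation test gave p = 0.1 (two-sided, n = 3 per diet), the smallest that 20 assignments allow, or 0.15 adjusted over the 3 ratios. Psmb10 to Psmb7 overlapped between the diets (difference 0.031, exact p = 0.9). Markers of Kupffer cells and macrophages, cells rich in immunoproteasome, summed to 256 to 307 CPM in HFHC and 214 to 255 CPM in Chow livers. The largest terms were Clec4f, with means of 96.7 CPM in HFHC and 78.3 in Chow livers, and Cd5l, with 90.8 and 74.6. Of the 8 markers 6 had a log2 fold change above 0, while Vsig4 (-0.14) and Timd4 (-0.028) were below 0. None of the 8 was called or at 0 throughout, and their part in these ratios was not tested.

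Around the particle, Psmb9 was the only gene called of 45 tested in 8 lists of the ubiquitin-proteasome system (2.22%, against 6.67% of all tested genes). None passed among the subunits named outside the rule, Adrm1 and Sem1 (0 of 2), the bound deubiquitinases and cofactors such as Usp14 (0 of 4) and the assembly factors Pomp, Psmg1 to Psmg4 and Akirin2 (0 of 6, median 0.080). Of the activators and the inhibitor 0 of 5 passed. Psme4, the nuclear activator PA200, had 131, 145 and 138 CPM in HFHC livers, against 157, 166 and 160 CPM in Chow livers (-0.23 ± 0.076, edgeR adjusted p = 0.112), with every HFHC liver lower. The inhibitor gene Psmf1 was higher in every HFHC liver and did not pass (0.21 ± 0.090, edgeR adjusted p = 0.213).

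The genes that control proteasome transcription did not pass either (0 of 9, median 0.12). Nfe2l1 had 142, 149 and 120.4 CPM in HFHC livers, against 105, 120.5 and 109 CPM in Chow livers (0.30 ± 0.099, edgeR adjusted p = 0.110). HFHC replicate 3 was the lowest HFHC liver for Nfe2l1, just under Chow replicate 8. For the 14 core genes HFHC replicate 3 was the highest HFHC liver, and of the 17 regulatory genes it was the highest for 10 and the lowest for 4. The relation of Nfe2l1 to the members was not tested. Nfe2l1 was called without HFHC replicate 3, with weighted limma-voom and after correction for GC content and length (adjusted p 0.0484, 0.0308 and 0.0295). Nfe2l2, which encodes NRF2, had 70.5, 87.0 and 67.0 CPM in HFHC livers, against 62.6, 53.6 and 64.7 CPM in Chow livers (0.31 ± 0.12, adjusted p = 0.148), with every HFHC liver higher. Ddi2, the protease that activates the Nfe2l1 product, stood at -0.037.

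None of 6 ubiquitin and activating enzyme genes and none of 10 shuttle factor and VCP genes passed, with medians of 0.013 and 0.052. The COP9 signalosome and the translation factor eIF3, complexes built from relatives of the lid subunits, had 0 of 10 and 0 of 14 members called and medians of 0.049 and 0.041, beside 0.12 for the lid. No test was made between these lists.

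The libraries held 30096409 to 30871297 counts in HFHC and 26767416 to 27339613 counts in Chow livers. Hepatocyte markers summed to 82104 to 85532 CPM in HFHC and 74639 to 94355 CPM in Chow livers, with Tat and Cps1 called lower among 8. No tested marker of stellate cells (8 of 8 tested), sinusoidal endothelium (8 of 8), cholangiocytes (5 of 6) or B cells (4 of 4) was called. For T and NK cells 1 of 7 markers passed the filter, for neutrophils 2 of 5 and for pancreatic acinar cells 1 of 6, and 0 of these were called. The second principal component of all tested genes, with 16.6% of the variance, set Chow replicate 8 apart. The mice were littermates of unstated litters, and p values cover only the variation among the 6 animals.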

How the data were processed

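Liver RNA of 6 mice was sequenced, 1 library per mouse. Per the labels' protocols, TruSeq stranded total RNA libraries were made after Ribo-Zero depletion. The authors deposited estimated counts of each gene, not log-transformed and not normalized as far as their differing totals show; the submitters' processing notes list STAR 2.7.3a, Partek 9 and mm10. The sources used here name neither the annotation nor the strand setting. Of the values in a library 16.7% to 18.0% were not whole (tolerance 0.05).

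Counts were rounded and genes kept by filterByExpr (minimum count 10), which left 14896. The test was edgeR 4.0.16 with TMM factors and the quasi-likelihood F test on all 6 libraries, without covariates, and p was adjusted by Benjamini-Hochberg over the whole table, with calls at 0.05. The SE is the log2 fold change divided by the square root of F. CPM use TMM-scaled library sizes. The deposited end coordinates lie 1 base past GENCODE M21 and are printed without it. Copies were found with BLAST 2.17.0. For them and for CPM per kb, lengths are those of the APPRIS principal transcript, the longest where ranks tied. The GC and length correction used the longest transcript of each gene, a protein-coding one where there was one.

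Values in every library are given for called members, Psmb5, Psmb6 and Psmb7, and, per role group, the one of smallest p in groups without a call and those with the largest and smallest log2 fold change, and outside the members for Psmb8, Psmb9, Psmb10, Nfe2l1 and Nfe2l2. Values in every library of Psmd1, Psme4 and Hpd, and the summaries of Psmd10, Psmf1 and Ddi2, were added after their values were seen. The promoters of Psmb5 and Psmb6 and the sums with copies were also chosen afterwards. Members and lists were chosen with earlier results of these data known. Alternatives tried were DESeq2 1.42.0, other filters and size factors, limma-voom (limma 3.58.1) with and without sample weights, other thresholds, a GC and length correction, and each library left out in turn. R 4.3.3 and Python 3.11.15 were used.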

Additional observations from a re-analysis of the deposited data

How the results depend on the processing

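Across 16 alternative fits, the log2 fold changes of 40 single genes gave 639 values: 586 kept their direction and side of the threshold, 11 lost a call, 9 gained one, and 33 changed sign, none of them of a called gene. With weighted limma-voom, the sign turned for Psma2 (-0.017), Psma8 (-0.43, and -0.26 unweighted), Psmb3 (-0.00051), Psmb6 (-0.010), Psmb7 (-0.018), Psmd13 (-0.0020) and Psmb10 (-0.044). After the GC and length correction it turned for Psmb2 (-0.0090), Psmb3 (-0.059), Psmb6 (-0.084), Psmb7 (-0.017), Psmc1 (-0.023), Psmd13 (-0.037), Psmb10 (-0.017) and Psmc6 (0.083). Dropping 1 library at a time gave values on both sides of 0 for Psma2 (-0.050 to 0.11), Psma6 (-0.0037 to 0.090), Psma8 (-0.50 to 0.46), Psmb3 (-0.029 to 0.13), Psmb6 (-0.022 to 0.059), Psmb7 (-0.041 to 0.083), Psmc1 (-0.016 to 0.061), Psmd11 (-0.0053 to 0.089), Psmd13 (-0.018 to 0.060) and Psmb10 (-0.10 to 0.17). The direction of these genes is therefore not settled. The members called higher, 1 of 35, came to 0 with no count filter, after the GC and length correction, at an adjusted p under 0.01 and with any library dropped (0 to 0). No alternative called a member lower at 0.05. The median of the members ran from 0.076 to 0.15 with a library dropped. After the GC and length correction the median of the ATPases moved to 0.033 and that of the other base genes to 0.12. In the pathway lists, where 1 gene was called higher, 2 were with upper-quartile factors, library totals, no count filter, DESeq2 (each adding Psmb8) or the GC and length correction (adding Nfe2l1), 3 were with weighted limma-voom, and 0 to 2 were with a library dropped. The ratio of Psmb10 to Psmb7 changed sign without HFHC replicate 3 (-0.074) and without Chow replicate 7 (-0.017). The cause of these shifts was not tested.

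All genes called numbered 994, against 361 to 1080 with a library dropped and 1494 with weighted limma-voom. The median half-width of the members' 95% interval was 0.19 on the log2 scale. No paired analysis was possible because the labels give no litter or pairing of the mice.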
